A study of Mus musculus with 4 samples.

Results

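Cells of tumours grown from the mouse mammary carcinoma line 4T1 were compared between fractions of high and low aldehyde dehydrogenase (ALDH) activity by pairing arrays that lay at the same position of their slides. The pair at position 1_1 set the ALDH-high cells of ZT12 against the ALDH-low cells of ZT0, and the pair at position 1_2 set the ALDH-high cells of ZT0 against the ALDH-low cells of ZT12. The genes described are those whose signal differed in the same direction by at least 1 log2 unit, that is 2-fold, in both pairs. They numbered 265 of 19320 measured genes, with 61 higher and 204 lower in the ALDH-high cells. A gene counted as measured when any of its probes was well above background on all 4 arrays, and the brightest of those was used. The array held 37074 gene names.

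The 4T1 cells had been implanted in BALB/c mice, which received no treatment, and the tumours were taken at zeitgeber time ZT0 or ZT12. The cells were separated with the ALDEFLUOR kit, and total RNA of each fraction was hybridised to 1 one-colour Agilent array. The 4 groups were therefore ZT0 ALDH-low, ZT0 ALDH-high, ZT12 ALDH-low and ZT12 ALDH-high, with 1 array each and no replicate. The sources used here do not give the number of mice behind each fraction.

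ALDH enzymes oxidise aldehydes, retinal among them, to carboxylic acids. The ALDEFLUOR reagent is a substrate whose product stays in the cell and fluoresces, and high activity has been used in mammary tumours to enrich for cells that form new tumours. Zeitgeber time counts hours from lights on. 4T1 is an epithelial line of the BALB/c strain that spreads from the mammary gland to distant organs, and its tumours recruit large numbers of myeloid cells.

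The crossed pairs have a particular geometry. Both ZT0 arrays lay on one slide and both ZT12 arrays on the other, and position 1_1 carried the ALDH-low array of the first and the ALDH-high array of the second. Within a pair the position was the same, but the time and slide differed together with the ALDH fraction, and they did so in opposite ways in the 2 pairs. A pure time or slide difference gives the pairs opposite signs, so a gene passed in both only where its mean ALDH difference exceeded its mean time difference by at least 1 log2 unit. Array position and a dependence of the ALDH difference on time cannot be told apart with these 4 arrays. Nor can either be told apart from an exchange of the 2 fraction labels on one slide, which would make the differences between fractions given here something else. The labels alone assign the fractions.

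The processed signal had a 75th percentile between 156.3 and 458.8, between 55.8% and 60.6% of 59305 spots were well above background, and 0 were saturated. Spike-in controls had slopes of 0.789 and 0.873 at position 1_1 against 0.944 and 0.956 at position 1_2. Arrays at the same position were the most alike. Across genes, which are not independent replicates, their levels correlated with r = 0.983 at position 1_1 and 0.967 at position 1_2, against 0.857 to 0.872 for the other 4 combinations of arrays. The SD over genes of the difference between 2 arrays was 0.45 and 0.75 log2 units within the positions, and 1.46 and 1.52 within ZT0 and ZT12. The mean difference between the positions had an SD of 1.40 over genes, that between the ALDH fractions 0.50 and that between the times 0.37. Over all genes the ALDH difference thus varied less than that between the positions, and for the main genes the level on all 4 arrays is given. For the 204 lower genes the median of the mean ALDH difference was -1.77 and that of position 1_1 minus position 1_2 was 1.25.

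Levels are the log2 of the processed signal over the 75th percentile of the same array, and differences are ALDH-high minus ALDH-low on that log2 scale. Where 2 differences are given, the first is that of position 1_1 and the second that of position 1_2. Of the 19320 measured genes, 0.316% were higher and 1.06% lower by the rule in both pairs. In single pairs, 2.05% were at least 1 unit higher and 1.4% lower at position 1_1, and 10.1% and 5.93% at position 1_2. The pairs disagreed by the same size in 35 genes, 28 of them (0.145%) higher at position 1_1 and 7 (0.0362%) lower there. Across genes the differences of the pairs correlated with a Pearson coefficient of 0.33 and a Spearman coefficient of 0.31, and 62.2% of genes had the same sign in both. The pairs share no array. The median difference over all genes was 0.03 and 0.17.

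**Figure D1:**
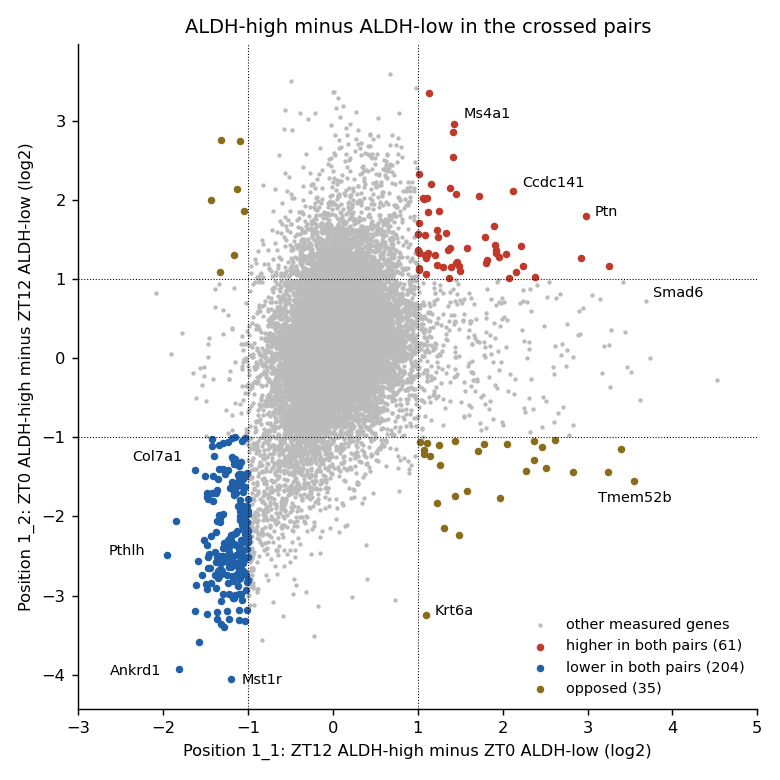
ALDH-high minus ALDH-low difference (log2) of every measured gene at position 1_1 (x axis) and position 1_2 (y axis). Red points are the 61 genes at least 1 unit higher in both pairs, blue points the 204 lower in both, and brown points the 35 genes past 1 unit with opposite signs. Dotted lines mark 1 log2 unit, and the blue cloud extends farther down than to the left.

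No gene was called when the ALDH fractions were tested across all 19320 genes with limma and array position as a covariate (two-sided, Benjamini-Hochberg threshold 0.05). The count was 0, the smallest adjusted p was 0.447, and 1843 genes (9.54%) had an unadjusted p under 0.05, 950 higher and 893 lower. With time in place of position, limma called 0 genes and 1 had an unadjusted p under 0.05. Without a covariate it called 0, and 21 had one. With position in the fit, the 1 residual degree of freedom is the difference between the times, which is also that between the slides. With time in the fit, it is the difference between the positions, and without a covariate both are in the residual. So the p-values set the ALDH difference of these 4 arrays against such differences, not against a spread between replicates. The values that follow also chose the genes, so they are given as descriptions with no test.

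The genes lower in ALDH-high cells had median differences of -1.18 and -2.35, and 192 of the 204 had the larger difference at position 1_2. Their median level was 0.45 on ZT0 ALDH-low, -0.74 on ZT12 ALDH-high, then -0.22 on ZT12 ALDH-low and -2.41 on ZT0 ALDH-high. The median was lowest on the ZT0 ALDH-high array. The 2 ALDH-high arrays both lay below the 2 ALDH-low arrays in 170 of the 204, against 6.84% of all measured genes. The rule already puts each ALDH-high array below the ALDH-low array of its position, so the share over all genes is no like comparison. Of the 204 genes, 184 (90.2%) carry a gene symbol, against 65.7% of all measured genes.

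The gene with the largest difference in its weaker pair was Pthlh, which encodes the parathyroid hormone-related protein that tumours release to act on bone. Its level was 1.21 on ZT0 ALDH-low and -0.74 on ZT12 ALDH-high, and 0.22 on ZT12 ALDH-low and -2.27 on ZT0 ALDH-high. Both ALDH-high arrays were below both ALDH-low arrays, with differences of -1.96 and -2.49. The Pthlh probe lies at chr6:147200926-147200985 in build mm9, the build of the array design. Exon and UTR positions were not analysed here for any probe.

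Several lower genes encode secreted signals or act on them. Bmp7, a bone morphogenetic protein, had levels of 0.62 and -0.99 at position 1_1 and of -0.24 and -3.11 at position 1_2, ALDH-low first, so that its differences were -1.61 and -2.87. Apcdd1, an inhibitor of Wnt signalling at the cell surface, differed by -1.62 and -3.19. Csf3, which encodes the granulocyte growth factor G-CSF, had levels of 0.54 and -0.71 at position 1_1 and of 0.85 and -2.35 at position 1_2. The fractions did not overlap for Bmp7, Apcdd1 or Csf3, and Csf3 differed by -1.25 and -3.20. Il23a, a subunit of interleukin 23, was the other member of the list of inflammatory cytokines and chemokines that was lower in both pairs (-1.11 and -2.42). None of the 26 measured genes of that list was higher in both, and its medians were 0.38 and -0.56. Over all genes 1.06% were lower in both pairs and 0.316% higher.

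Receptor tyrosine kinases of epithelium held 3 lower genes among 20 measured, against 1.06% of all genes, and 12 of the 20 were below 0 in both pairs, against 23.7% of all genes. Mst1r, the receptor RON for macrophage-stimulating protein, had the largest difference of the 204 genes at position 1_2. Its level was 0.37 on ZT0 ALDH-low and -0.83 on ZT12 ALDH-high, then 0.19 on ZT12 ALDH-low and -3.86 on ZT0 ALDH-high, giving -1.20 and -4.05. The ALDH-high arrays were the lower ones at both positions. Erbb2, the HER2 receptor, differed by -1.11 and -3.18, and Epha2, an ephrin receptor, by -1.38 and -2.58. The fractions of Erbb2 overlapped. Egfr, the receptor for epidermal growth factor, had -0.35 and 0.31, and Fgfr1 and Fgfr2, receptors for fibroblast growth factors, lay within 0.2 of 0 in both pairs. The list's medians were -0.21 and -0.43.

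**Figure D2:**
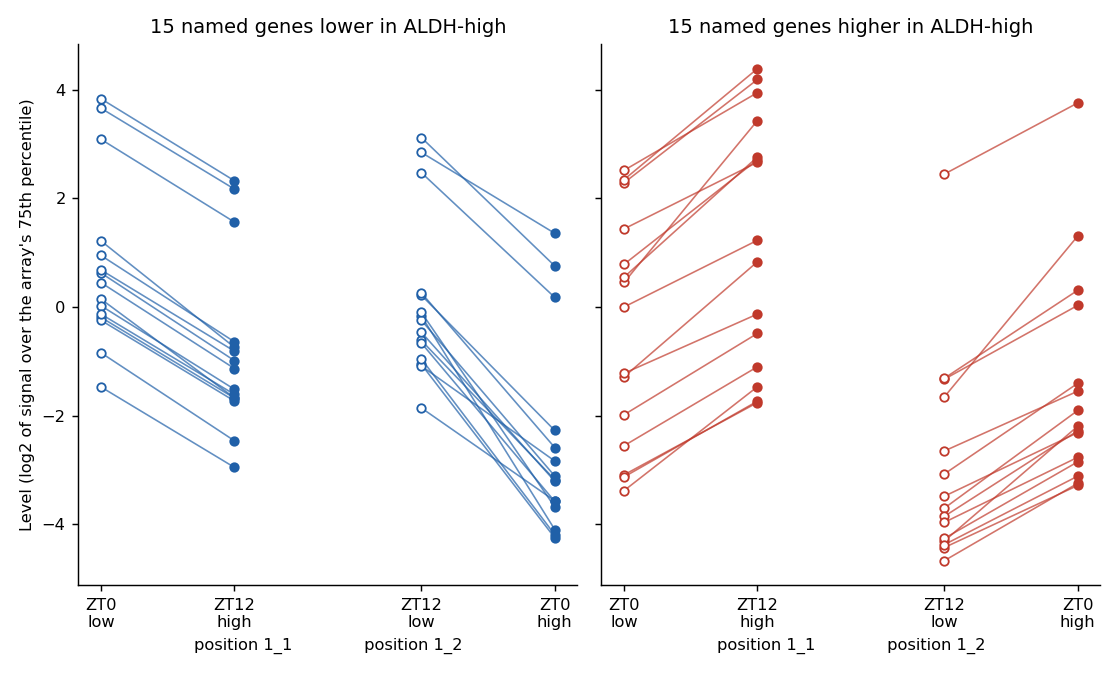
Level (log2 of signal over the 75th percentile of the array) of the 15 named genes lower and the 15 higher in ALDH-high cells, one line a gene in each pair. Open circles are ALDH-low and filled circles ALDH-high arrays. Every line falls in the left panel and climbs in the right panel by at least 1 unit, and most lines of the right panel lie lower at position 1_2 than at position 1_1.

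The list with the most lower genes was that of integrins, laminins and collagens, the receptors and proteins of the basement membrane and matrix. Of 26 measured members, 10 were lower in both pairs and 0 higher, against 1.06% and 0.316% of all genes. Below 0 in both were 19, against 23.7% of all genes. The list's medians were -0.91 and -1.23, against 0.03 and 0.17 over all genes. The lower members included the integrin subunit Itga3, the laminin chains Lama5, Lamb1 and Lamb2, and the collagen chains Col4a1, Col6a1, Col7a1, Col16a1 and Col18a1. Itga3, Lama5, Lamb1 and Lamb2 encode subunits of laminin and of a laminin receptor of epithelial cells, and Col4a1 and Col18a1 basement membrane collagens.

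Lamb1 had a level of 3.66 on ZT0 ALDH-low and 2.17 on ZT12 ALDH-high, and of 3.12 on ZT12 ALDH-low and 0.75 on ZT0 ALDH-high. The ALDH-high arrays were lower by 1.49 and 2.36 units, and 2 of its 3 measured probes had that sign in both pairs. Col7a1, the anchoring fibril collagen, differed almost equally in the 2 pairs (-1.51 and -1.49), from levels of 3.83 and 2.32 at position 1_1 and of 2.84 and 1.35 at position 1_2. Col16a1 had levels of 3.08 and 1.56, then 2.47 and 0.17. For Lamb1, Col7a1 and Col16a1 the fractions did not overlap. Itga3 had differences of -1.22 and -2.58 and Lama5 of -1.29 and -2.50. Col1a1, Col1a2 and Col3a1, fibrillar collagens made mainly by fibroblasts, were split between the pairs: Col1a1 had -0.91 and 1.20, Col1a2 -0.61 and 1.04, and Col3a1 -0.70 and 0.89. In the same list, Col5a2 (0.20 and 1.33) and Col17a1 (0.32 and 0.97) were above 0 in both pairs.

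YAP and TAZ are coactivators that enter the nucleus in cells under tension or at low density and act through TEAD factors. Of 24 measured genes of the list of YAP and TEAD and their targets, 6 were lower in both pairs and 0 higher. Over all genes 1.06% were lower and 0.316% higher. The list's medians were -0.48 and -0.84. The lower genes were Yap1 itself, Wwtr1, which encodes TAZ, the targets Ankrd1 and Cyr61, the LIM protein gene Ajuba, and Arhgef17, a guanine nucleotide exchange factor. Ankrd1 had a level of 0.14 on ZT0 ALDH-low, -1.67 on ZT12 ALDH-high, then -0.17 on ZT12 ALDH-low and -4.10 on ZT0 ALDH-high. The ALDH-high arrays were again the lower ones, by 1.82 and 3.93 units. Yap1 had levels of 1.70 and 0.42 at position 1_1 and of 1.12 and -1.41 at position 1_2, and 1 of its 2 measured probes had the same sign in both pairs. Cyr61 differed by -1.21 and -2.32, Wwtr1 by -1.07 and -2.08, and Ajuba by -1.01 and -2.82. Other members did not pass: Ctgf, a widely used YAP target, had -0.22 and -0.76, Amotl2 -0.52 and 0.26, and among the TEAD factors Tead3 had -0.65 and -2.49 but Tead1 0.44 and 2.84.

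Because several lower genes belong to the YAP list, the 250 bases before the RefSeq start of each gene (build GRCm38.p6) were searched for GGAATG, the core of the TEAD site, for TGANTCA, bound by AP-1, and for CACGTG, the E-box bound by CLOCK and BMAL1. Each was searched on both strands, with overlap between motifs allowed. Of the 184 lower genes with a symbol, 142 had a window in the RefSeq table, 174 windows in all. GGAATG was present in 21.3% of these windows, against 10.6% of the windows of all measured genes with a symbol and 12.6% of all 32851 windows. TGANTCA was present in 7.47%, against 5.07% and 6.75%, and CACGTG in 4.6%, against 7.88% and 6.02%. In the 21 windows of the measured YAP and TEAD list, some of whose genes are among the lower ones, GGAATG was in 57.1%. Of the 24 higher genes with a symbol, 19 had a window, and GGAATG was in 9.52% of their 21 windows, TGANTCA in 0% and CACGTG in 4.76%. These matches are descriptions of the letters and show no binding. The windows of 3 lower genes of the YAP list are shown, chosen among those that carry the TEAD letters. GGAATG, or CATTCC for the other strand, is in capitals there, and TGANTCA in the window of Mmp3. In the Ankrd1 window (chr19:36119845-36120094, minus strand) the motif starts 210 and 123 bases before the gene's start, in that of Cyr61 (Ccn1 in RefSeq, chr3:145649986-145650235, minus strand) 103 bases before it, and in that of Yap1 (chr9:8004597-8004846, minus strand) 141 bases before it. The motif of the Mmp3 window (chr9:7445572-7445821, plus strand) starts 46 bases before the start.
Ankrd1: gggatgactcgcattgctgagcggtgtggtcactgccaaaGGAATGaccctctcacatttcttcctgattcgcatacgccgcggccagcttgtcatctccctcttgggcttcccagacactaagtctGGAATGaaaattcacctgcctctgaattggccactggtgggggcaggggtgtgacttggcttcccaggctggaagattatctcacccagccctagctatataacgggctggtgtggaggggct
Cyr61: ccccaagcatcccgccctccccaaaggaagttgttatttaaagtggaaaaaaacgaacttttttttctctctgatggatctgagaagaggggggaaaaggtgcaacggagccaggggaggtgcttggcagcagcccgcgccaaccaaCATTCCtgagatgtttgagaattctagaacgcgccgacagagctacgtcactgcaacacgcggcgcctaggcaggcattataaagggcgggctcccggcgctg
Yap1: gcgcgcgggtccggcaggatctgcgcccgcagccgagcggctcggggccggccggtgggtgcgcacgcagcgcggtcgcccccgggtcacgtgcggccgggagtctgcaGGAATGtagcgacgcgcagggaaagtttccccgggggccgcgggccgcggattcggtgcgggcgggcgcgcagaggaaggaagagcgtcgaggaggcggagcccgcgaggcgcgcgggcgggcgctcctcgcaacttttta
Mmp3: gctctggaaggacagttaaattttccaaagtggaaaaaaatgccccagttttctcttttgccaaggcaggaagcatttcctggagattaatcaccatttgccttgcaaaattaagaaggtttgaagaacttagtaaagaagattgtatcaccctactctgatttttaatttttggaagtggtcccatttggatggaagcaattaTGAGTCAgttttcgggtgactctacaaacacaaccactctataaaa

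Mmp3, whose window carries the AP-1 letters, encodes stromelysin-1, a protease of the matrix. Its level was 3.44 on ZT0 ALDH-low and 2.06 on ZT12 ALDH-high, and 3.68 on ZT12 ALDH-low and 0.78 on ZT0 ALDH-high. The fractions did not overlap, and the differences were -1.38 and -2.90. It was the only 1 of 16 measured matrix metalloproteinases and inhibitors that was lower in both pairs, and that list's medians were -0.02 and -0.42.

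Keratins 8 and 18, the paired intermediate filament proteins of simple epithelia, were lower in both pairs. Krt8 had levels of 5.68 and 4.36 at position 1_1 and of 4.28 and 1.61 at position 1_2, with differences of -1.32 and -2.68. The ZT12 ALDH-high level of Krt8 lay just above the ZT12 ALDH-low level, so the fractions overlapped across positions. Krt18 differed by -1.02 and -3.18, and its fractions overlapped in the same way. Krt19 had -0.97 and -2.55 and Krt14, a basal keratin, -0.82 and -2.43, so that neither reached 1 unit in the weaker pair. Paired within time, Krt14 was lower in ALDH-high cells at ZT0 (-4.70) but higher at ZT12 (1.46). Krt6a went opposite ways, with 1.095 and -3.25. Over 10 measured keratins the medians were -0.60 and -2.08, and 7 were below 0 in both pairs, against 23.7% of all genes.

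Genes of cell junctions gave the same picture in part. Of 9 measured genes of desmosomes and the cornified envelope, 3 were lower in both pairs and 8 were below 0 in both. Over all genes these shares were 1.06% and 23.7%. Dsp, the plaque protein that ties desmosomes to keratin, had levels of -0.19 and -1.68, then -1.09 and -2.84, with differences of -1.49 and -1.75. The fractions of Dsp did not overlap. Ppl, which links the envelope to keratin, differed by -1.10 and -2.79, and Perp, a desmosomal membrane protein, by -1.06 and -2.59. The fractions of Perp overlapped. Among 11 measured genes of epithelial adhesion and tight junctions only Tjp1, the scaffold ZO-1, was lower in both (-1.37 and -2.06). Cdh1, which encodes E-cadherin, had -0.18 and -0.24, and the surface marker Epcam -0.72 and -1.77. Paired within time, Epcam was lower in ALDH-high cells at ZT0 (-3.57) but higher at ZT12 (1.08).

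Among 11 measured epithelial transcription factors, Pitx1 (-1.54 and -2.74) and Tfap2a (-1.31 and -2.71) were lower in both pairs, against 1.06% of all genes. Sox9, a factor of progenitor cells, had -0.996 and -2.22, its weaker difference just under 1 unit in size. In the Hedgehog pathway 2 of 8 measured genes were lower, against 1.06% of all genes. The 2 were the ligand Dhh (-1.42 and -1.71) and the transcription factor Gli3 (-1.47 and -2.51). Ptch1, the receptor that binds the ligand, had -0.14 and 1.12. Bmp1, a protease that matures procollagen, was the second lower gene of 19 measured in the list of BMP and TGF-beta response (-1.17 and -2.22), with levels of 3.95, 2.78, 2.74 and 0.52 on ZT0 ALDH-low, ZT12 ALDH-high, ZT12 ALDH-low and ZT0 ALDH-high. All 3 measured Bmp1 probes had that sign, but the fractions of Bmp1 overlapped.

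**Figure D3:**
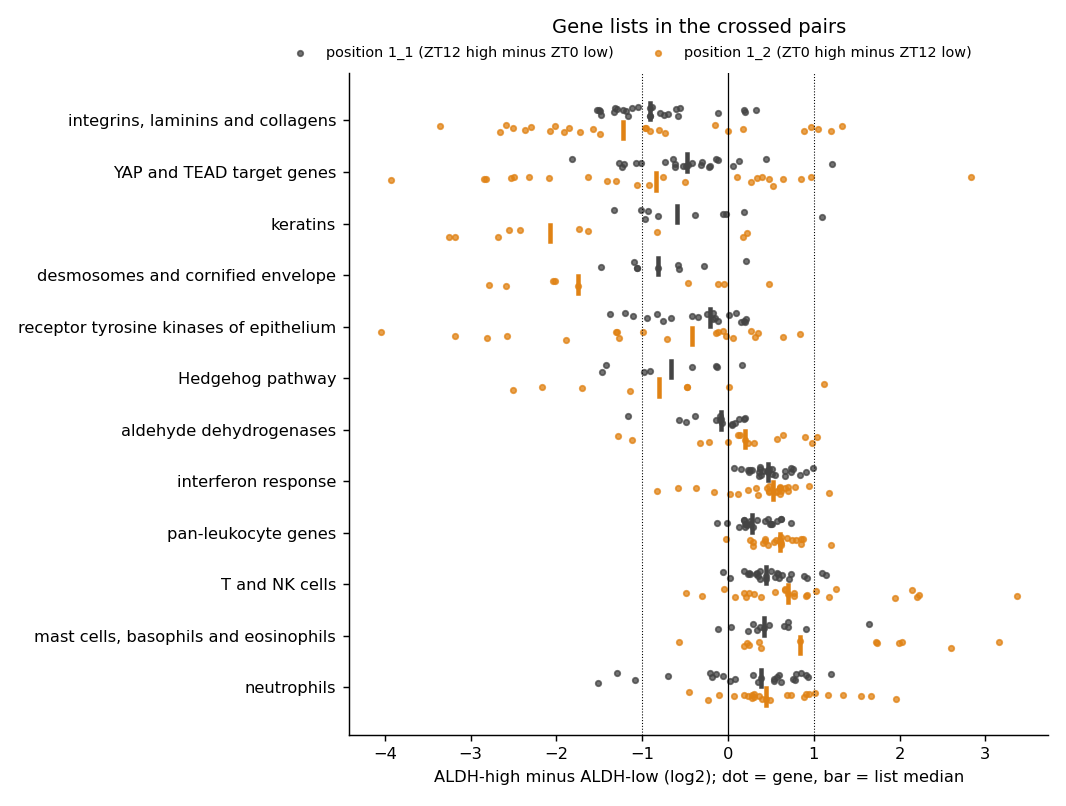
ALDH-high minus ALDH-low difference (log2) of each measured member of 12 gene lists at position 1_1 (grey) and position 1_2 (orange), with the list medians as bars. The bars of integrins, laminins and collagens stand at -0.91 and -1.23 and those of keratins at -0.60 and -2.08, while those of the pan-leukocyte genes stand at 0.27 and 0.61.

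The remaining genes among the 15 largest differences have varied roles. Steap1 and Steap2, metalloreductases of the membrane, differed by -1.58 and -3.58 and by -1.49 and -3.24. Steap1 had levels of 0.45 and -1.13 at position 1_1 and of -0.10 and -3.68 at position 1_2, and its fractions did not overlap. Myh10, non-muscle myosin IIB, had -1.50 and -2.85, with 1 of 2 probes of that sign in both pairs. Me1, the cytosolic malic enzyme that supplies NADPH, had -1.48 and -2.92. Aox1, an aldehyde oxidase and thus an enzyme that acts on aldehydes without being an ALDH, had levels in ALDH-low cells of -1.47 on ZT0 and -1.86 on ZT12, against -3.57 and -2.95 in the ALDH-high cells of those times. Aox1 differed by -1.48 and -1.71. Hspb8, a small heat shock protein, was the only 1 of 26 measured heat shock and cochaperone genes lower in both pairs (-1.15 and -2.996), and Fbln2, a matrix glycoprotein, the only 1 of 17 fibroblast and pericyte genes (-1.09 and -2.00).

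Markers of other cells were compared as well. A bulk sample does not tell fewer cells of a type from less RNA per cell. The labels call the samples 4T1 cells, and the epithelial markers Krt8, Krt18 and Epcam were well above background on all 4 arrays, but so were all 22 pan-leukocyte genes. The summed level of the keratin list was 7.58 on ZT0 ALDH-low, 6.52 on ZT12 ALDH-high, then 6.43 on ZT12 ALDH-low and 3.60 on ZT0 ALDH-high, with 10 or 11 of its 16 genes well above background on each array. That of the pan-leukocyte list was 9.10, 9.57, 10.51 and 11.08 on the same arrays. So in each crossed pair the ALDH-high array had the lower keratin and the higher leukocyte sum. Within ZT0 the order was the same, but within ZT12 it was reversed for both lists. There the keratin sum was 6.52 in ALDH-high and 6.43 in ALDH-low cells, and the pan-leukocyte sum 9.57 and 10.51. The part of leukocyte RNA in the differences of the 204 genes was not tested.

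No pan-leukocyte gene passed 1 unit in both pairs, but 19 of 22 were above 0 in both, against 38.5% of all genes, and the medians were 0.27 and 0.61. Paired within time, the medians of this list were 2.07 at ZT0 and -1.19 at ZT12. Ptprc, the leukocyte surface phosphatase CD45, had levels of 4.10 and 4.29 at position 1_1 and of 6.63 and 7.19 at position 1_2, so the positions differed more than the fractions (differences of 0.18 and 0.56). In the T and NK cell list 21 of 25 genes were above 0 in both pairs, with medians of 0.45 and 0.70, and its sums were 6.44 and 6.85 at position 1_1 and 4.48 and 5.18 at position 1_2. Cd8a, the coreceptor of cytotoxic T cells, was the only 1 of them to pass in both pairs, and 0 passed with normexp background correction, median scaling, quantile normalization, the authors' values or a lowess within each pair. It had levels of -1.22 and -0.13, then -4.38 and -3.11, and differed by 1.09 and 1.26. Cd3d, of the T cell receptor complex, had 0.73 and 2.20, and Gzma, a granule protease of killer cells, 0.02 and 3.36. Of 13 genes of mast cells, basophils and eosinophils, 11 were above 0 in both pairs, against 38.5% of all genes. The medians of the 13 were 0.42 and 0.83, with Mcpt8, a basophil protease, at 0.37 and 2.59. The sum of this list was 5.33 and 5.99 at position 1_1 and 8.26 and 8.49 at position 1_2.

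Of 26 interferon response genes, 22 were above 0 in both pairs, against 38.5% of all genes, and 0 passed 1 unit in both. Their medians were 0.46 and 0.52, while the median of position 1_1 minus position 1_2 was -1.26. Paired within time, the medians of the interferon list were 1.82 at ZT0 and -0.76 at ZT12. Ifit3 had 0.91 and 0.95, and Oas3 0.76 and 1.18. In the neutrophil list 15 of 25 were above 0 in both, against 38.5% of all genes. Its sums were 11.31, 11.76, 11.79 and 12.41 in the array order used above. The neutrophil count was 9 of 25 with each array centred on its median and 7 with quantile normalization. Macrophage and monocyte genes had 9 of 24 above 0 in both pairs, near the 38.5% of all genes. The medians of the 24 were 0.35 and -0.07, and the sums 10.25, 10.54, 10.13 and 10.48. The B cell gene Ms4a1, the surface protein CD20, was higher in both pairs, from levels of 2.51 and 3.95 at position 1_1 and of -1.66 and 1.31 at position 1_2, and 1 of its 2 probes had that sign in both. It did not pass with the mean of probes. Its differences were 1.43 and 2.96, while the B and plasma cell list as a whole had medians of -0.02 and 1.14. Globin genes, which mark red cells, were below 0 in both pairs and mainly at position 1_1: Hba-a1 had -1.56 and -0.13 and Hbb-b2 -1.54 and -0.35. The sum of the red cell and platelet list was 10.49 and 9.02 at position 1_1 and 4.14 and 3.48 at position 1_2. When each array was centred on its median, the median difference of all genes at position 1_2 went from 0.17 to -0.17. With that scaling, the count of pan-leukocyte genes above 0 in both pairs was 16 of 22, that of T and NK cell genes 15 of 25, that of mast cell, basophil and eosinophil genes 7 of 13, and that of interferon response genes 18 of 26, and the medians of these 4 lists stayed above 0 in both pairs.

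The enzymes after which the cells were sorted did not differ in a common direction. Of 15 measured ALDH genes 0 passed 1 unit in both pairs, 5 were above 0 in both and 4 below, and the medians were -0.08 and 0.19. Over all genes 38.5% were above 0 in both and 23.7% below. Aldh1a1, one of the isoforms linked to the ALDEFLUOR signal, had levels of -0.73 on ZT0 ALDH-low, -1.90 on ZT12 ALDH-high, then -3.27 on ZT12 ALDH-low and -2.38 on ZT0 ALDH-high. It was lower in ALDH-high cells at position 1_1 and higher at position 1_2 (-1.17 and 0.89). Aldh2, the mitochondrial enzyme, had -0.39 and 1.04. Aldh1a3 was well above background on ZT12 ALDH-low only, where its signal was at least 1.62-fold that of ZT0 ALDH-high. Such a bound sets the brighter array against the lowest well-above-background signal of the dim array, or against the dim probe itself where that was higher.

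Markers used for stem-like and mammary progenitor cells likewise held 0 of 17 genes that passed in both pairs. In this list 8 were below 0 in both and 2 above, against 23.7% and 38.5% of all genes. Cd44, an adhesion receptor of such cells, had levels of 4.17 and 4.79, then 6.26 and 6.23, with differences of 0.61 and -0.02. Of 18 clock genes 0 passed in both pairs. Per1, a clock repressor, had 0.74 and -0.30, Per2 0.997 and -0.73, and Dbp, an output factor, 0.76 and -1.39, so these were higher on the ZT12 array of both pairs. Per1 had levels of 1.99 and 2.73 at position 1_1 and of 5.15 and 4.85 at position 1_2, so its positions differed more than the arrays within them. Its ZT12 level was above that of ZT0 in ALDH-low cells (5.15 and 1.99) but below it in ALDH-high cells (2.73 and 4.85). Of 31 genes of replication and mitosis 0 passed, with medians of -0.49 and 0.05. Among them 14 were below 0 in both pairs and 1 above, and with each array centred on its median 25 were below. The ligand Wnt10a was measured at position 1_1 only (-0.44), and at position 1_2 the ALDH-low signal was at least 14.9-fold that of the ALDH-high array, which was not well above background.

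The 61 genes higher in ALDH-high cells had median differences of 1.38 and 1.36, nearly equal in the 2 pairs. Only 24 (39.3%) carry a gene symbol, and the other 37 are predicted, clone or locus names. Their median level was -0.82 on ZT0 ALDH-low, 1.003 on ZT12 ALDH-high, then -3.10 on ZT12 ALDH-low and -1.49 on ZT0 ALDH-high, so they were brighter at position 1_1 whatever the fraction. In 45 of the 61 both arrays of position 1_1 were above both of position 1_2, against 46.7% of all genes, and in 16 the fractions did not overlap, against 5.57%. The rule already puts each ALDH-high array above the ALDH-low array of its position, so these shares over all genes are no like comparison.

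Ptn, which encodes the heparin-binding growth factor pleiotrophin, had levels of 0.45 and 3.43 at position 1_1 and of -3.71 and -1.91 at position 1_2. It was higher in ALDH-high cells within each position (2.98 and 1.80), but the ZT0 ALDH-low array lay above the ZT0 ALDH-high array. Ccdc141, a coiled-coil protein gene, had the largest difference in its weaker pair (2.12 and 2.11), from levels of -1.29, 0.83, -4.31 and -2.20 in the same order. Kcnq1, a potassium channel, had levels of 0.55 and 2.76, then -4.26 and -2.85. Shank2, a synaptic scaffold, had levels of 2.28 and 4.19, then -3.08 and -1.41. The fractions of Ptn, Ccdc141, Kcnq1 and Shank2 overlapped, and their positions stood 3.02 to 5.48 units apart on average. Myl9, a myosin light chain of smooth muscle, had 1.93 and 1.36, and Chat, which makes acetylcholine, 1.23 and 1.17.

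Ggps1, which makes geranylgeranyl diphosphate for protein prenylation, was the only higher gene that was at least 1 unit higher at each time as well. Its levels were 2.34 and 4.39 at position 1_1 and 2.44 and 3.76 at position 1_2, so both ALDH-high arrays were above both ALDH-low arrays and the mean difference between the positions was 0.26. The differences were 2.04 and 1.31. Of its 6 measured probes, 3 had that sign in both pairs, and no other measured gene of the 23 in the cholesterol and isoprenoid list passed in both. Ggps1 did not pass with median scaling or with the mean of probes. Smad6, an inhibitor of BMP signalling, had a non-overlapping pattern as well, with levels of -2.84, 0.85, -0.79 and -0.06, but its difference at position 1_2 was 0.73 beside 3.69 at position 1_1. Hspa1a, an inducible heat shock protein gene with a near-identical copy, had -0.05 and 2.51, and the telomerase RNA gene Terc 0.78 and 1.86.

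Other probes of the same genes were less uniform. The 11 higher genes with more than 1 measured probe had 20 other probes, of which 5 were above 0 in both pairs and 0 passed 1 unit in both. The 54 lower genes with more than 1 had 64 other probes, of which 36 were below 0 in both and 20 passed. The values of the higher genes therefore rest on their brightest probe.

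Paired within time, the same arrays give another view of these genes. The within-time differences use the same 4 arrays and are set beside the crossed ones only as values. All 204 lower genes were lower at ZT0, with a median of -3.05, and 170 were lower at ZT12, with a median of -0.52. These 170 are the genes whose fractions did not overlap, so the count is not a further result. Over all measured genes 28.8% were at least 1 unit lower at ZT0 and 18.3% at ZT12, and 21.1% and 28.2% at least 1 unit higher. At both times 25 were at least 1 unit lower, among them Ankrd1 (-4.24 at ZT0 and -1.51 at ZT12), Mmp3 (-2.66 and -1.62), Csf3 (-2.89 and -1.56) and Apcdd1 (-3.41 and -1.41). All 61 higher genes were higher at ZT12, with a median of 3.54, but only 16 were higher at ZT0, where the median was -0.91. These 16 are the genes whose fractions did not overlap, and the other 45 those brighter on both arrays of position 1_1. So this split is not a further result. In 30 of the 61 the difference was at least 1 unit in opposite directions at the 2 times.

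**Figure D4:**
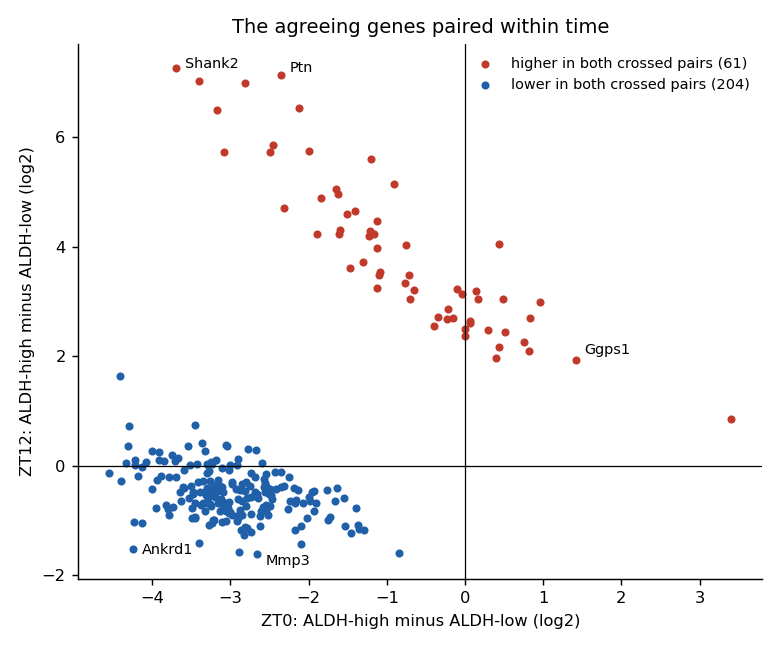
ALDH-high minus ALDH-low difference (log2) at ZT0 (x axis) and ZT12 (y axis) of the 61 genes higher (red) and 204 lower (blue) in both crossed pairs. The blue points lie left of 0 with ZT12 values spread around a median of -0.52, and 45 of the 61 red points lie left of 0 and above it. Those 45 are the genes brighter on both arrays of position 1_1 than on both of position 1_2.

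Among genes with a symbol, the 8 largest disagreements between the pairs went 4 each way by the rule. Saa1 and Saa3, serum amyloid A proteins of inflammation, were higher in ALDH-high cells at position 1_1 and lower at position 1_2 (1.49 and -2.24, and 1.58 and -1.68), that is higher on the ZT12 array of each pair. Saa3 had levels of 4.22 and 5.803, then 8.68 and 7.003, so the positions again differed more than the arrays within them. Tmem52b (3.55 and -1.55) and Abhd14b (1.97 and -1.77) showed the same order. The opposite order was seen in Adra2b, an adrenergic receptor (-1.43 and 1.999), Zfp13 (-1.10 and 2.74), Golt1a (-1.13 and 2.14) and Abca17 (-1.17 and 1.30).

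The cut at 1 unit fell in a continuous range. Just inside it on the lower side were Cnn3 (-1.001 and -2.33), Tpbg (-1.0009 and -2.19) and Tctn2 (-1.003 and -1.78), and just outside Kdelr3 (-0.999 and -2.34), Samd14 (-0.998 and -1.29) and Smad5 (-0.998 and -1.10). On the higher side Thsd7a (1.004 and 1.57), Ulk3 (1.01 and 1.36) and Pvrl4 (2.07 and 1.01) were just inside, and Hhat (0.97 and 1.21), Klhl4 (0.98 and 3.42) and Otog (1.45 and 0.98) just outside.

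Genes detected in one fraction alone stand outside these counts. Of the 37074 gene names, 56 were well above background on both ALDH-high arrays and neither ALDH-low array, and 276 on both ALDH-low arrays only. By comparison, 647 were seen on both arrays of position 1_1 only and 873 on both of position 1_2 only, 231 on both ZT0 arrays only and 30 on both ZT12 arrays only. The ZT12 ALDH-high array had the smallest share of spots well above background, 55.8% against 60.2% to 60.6% on the others. It enters the ALDH-high, position 1_1 and ZT12 counts, and its part in them was not tested. With the bound defined above, 14 of the 56 were at least 1 unit higher in both pairs and 25 of the 276 at least 1 unit lower. The largest bounds on the ALDH-low side were those of Chrnb1, an acetylcholine receptor subunit (at least 3.11-fold and 3.43-fold lower in ALDH-high cells), Rin1 (3.05-fold and 3.20-fold), Bnc1, an epithelial zinc finger protein gene (2.77-fold and 4.10-fold), Rnft2 (2.69-fold and 2.77-fold) and Angptl2, a secreted glycoprotein (2.69-fold and 7.71-fold). On the ALDH-high side they were those of the olfactory receptor gene Olfr1046 (at least 2.66-fold and 4.58-fold higher), the fibroblast growth factor Fgf10 (2.35-fold and 2.97-fold), Plk5 (4.01-fold and 2.17-fold), Rab3b (2.09-fold and 2.13-fold) and Slc16a12 (2.13-fold and 2.08-fold).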

How the data were processed

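Per the labels, total RNA of sorted cells was amplified, labelled with Cy3 and hybridised to one-colour arrays. The deposited processed signal is, per the file headers, an intensity on a linear scale, corrected for background within each array by Agilent Feature Extraction 10.7.1.1 on a design of build mm9. The submitters' processing notes name version 9.5.1.1 of that software, and which made the values is not known. The authors' deposited series table, also an intensity on a linear scale with the same distribution on all 4 arrays, served as an alternative. The deposited flags for outlier spots and for spots well above background were used as given.

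Control and outlier spots were left out, replicate spots were averaged, and the log2 signal minus the 75th percentile of its array was used, with the brightest probe for each gene name. Replicate spots of a probe had a median SD of 0.0370 to 0.0450 log2 units within an array, which says nothing of the spread between tumours. Groups came from the labels. Differences were taken within array position and called at 1 log2 unit in both pairs. The design has 1 array a group, so members carry no test. Across all genes limma 3.58.1 in R 4.3.3 fitted ALDH fraction and position with 1 residual degree of freedom, which is the difference between the times. The fit was tested on simulated data. The rest was done in Python 3.11.15 (numpy 2.4.6, pandas 2.3.3, statsmodels 0.14.6, matplotlib 3.10.9).

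The rule for these genes and the 37 gene lists (815 genes) were chosen with earlier results of these data known. Named genes are, by rule, those with a gene symbol: the 15 highest and 15 lowest by their weaker pair, up to 3 agreeing members of each list, 4 opposed genes each way, 3 genes just inside and outside the threshold on each side, 5 genes detected in one fraction alone for each fraction, and 18 fixed genes. Other list members and Krt6a were named after their values were seen. Some genes chosen by the rule are not reported here. Promoter windows came from RefSeq (GRCm38.p6), matched by symbol or synonym. The alternatives were normexp background correction (offset 50), median scaling, quantile normalization, the series table, a lowess within each pair (span 0.4), background filters, thresholds of 0.58 and 2 log2 units, the mean of probes, kept outlier spots, pairing within time, and, for the fit, other covariates and each array left out.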

Additional observations from a re-analysis of the deposited data

Results flagged for a closer look

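Among the named genes, 8 had ALDH differences of at least 1 log2 unit in opposite directions at the 2 times, lower in ALDH-high cells at ZT0 and higher at ZT12, although both crossed pairs agreed. Each group is 1 array, so the difference between the times was not tested, and it cannot be told apart from array position or from an exchange of the fraction labels on one slide. The ALDH-high minus ALDH-low difference was -3.69 at ZT0 and 7.26 at ZT12 for Shank2. For Ptn it was -2.36 and 7.14, and for Kcnq1 -3.40 and 7.02. Ms4a1 had -1.21 and 5.60, Chat -2.31 and 4.71, and Pvrl4, which encodes nectin-4, -1.21 and 4.29. For Cd8a the values were -1.89 and 4.25, and for Zfp410 -1.13 and 3.98. In all 8 both arrays of position 1_1 were brighter than both of position 1_2. That order follows from the choice of these genes, higher in both crossed pairs and lower at ZT0, and is no separate result.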

How the results depend on the processing

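Against 61 higher and 204 lower genes, normexp background correction gave 13 and 64, median scaling 27 and 262, quantile normalization 37 and 301, the authors' values 39 and 324, and a lowess within each pair 27 and 221. The share of higher genes among those agreeing was 23.0% and became 16.9% with normexp, 9.34% with median scaling, 10.9% with quantile normalization, 10.74% with the authors' values and 10.9% with the lowess. Asking for signal on at least 2 arrays gave 210 higher and 325 lower genes, and no background filter 694 and 388, for which fewer arrays had to be above background. At 2 log2 units 1 gene was higher (Ccdc141) and 0 lower, and at 0.58 units 544 and 634. The mean of probes gave 52 and 177, kept outlier spots 61 and 204. Pairs within time gave 17 and 32, of which 1 and 25 were among the main genes. Normexp lowered list counts: YAP genes from 6 to 3, desmosomes from 3 to 1, receptor tyrosine kinases from 3 to 1, epithelial transcription factors from 2 to 1, inflammatory cytokines (Csf3, Il23a) and Hedgehog genes (Gli3, Dhh) from 2 to 0, and adhesion and tight junctions (Tjp1), Wnt receptors, targets and inhibitors (Apcdd1) and heat shock proteins (Hspb8) from 1 to 0. Leaving aside pairs within time and the threshold of 2, 14 of 37 named lower and 4 of 18 named higher genes passed under every setting. The causes were not tested. limma called 0 genes under every setting run, leaving out each array in turn included (range 0 to 0), where 87 to 467 genes had an unadjusted p under 0.05 and the lone array of a fraction was assumed to vary like the others. The counts of agreeing genes need all 4 arrays and cannot be given with an array left out. No paired analysis was possible because each group holds 1 array, so replicate numbers pair nothing. The pairing used is by array position.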

Other observations

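Families that share the root of a gene symbol were counted after the values were seen. Among measured genes, 2 of 4 Steap genes, 2 of 4 Irx genes (the Iroquois transcription factors), 2 of 3 Glis genes and 2 of 3 Lamb genes were lower in both crossed pairs, and 5 of 22 genes with the root Col, against 1.06% of all genes. Other families had 2 of 18 Arhgef, 2 of 21 Krt, 3 of 50 Il and 2 of 168 Tmem genes. Irx1 differed by -1.01 and -2.80 and Irx2 by -1.23 and -3.30.

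Some lower genes outside the lists were also chosen after their values were seen. They were Loxl3, a lysyl oxidase (-1.33 and -2.58), Plod2, a lysyl hydroxylase of collagen (-1.42 and -1.49), Has2, a hyaluronan synthase (-1.33 and -2.01), Hspg2, which encodes perlecan (-1.04 and -1.63), Flnc, a filamin that cross-links actin (-1.08 and -2.30), and Fermt2, an integrin activator (-1.10 and -1.58). No test of enrichment was run.

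On chromosome 3, 3 probes for long noncoding RNA loci between 146557010 and 146646977 (mm9) were lower in both pairs, with -1.09 and -2.05, -1.28 and -2.56, and -1.47 and -1.78. The probe of Ttll7 within that stretch had -0.34 and 0.20, and that of the neighbouring Prkacb -0.29 and -0.31. The last 2 of the 3 noncoding probes lie close together, at 146646797-146646856 and 146646918-146646977. Their loci overlap on the same strand, so they do not count as separate loci.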
